A study of Mus musculus with 15 samples.

Results

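The genes described are those of the lysosomal proton pump and the cathepsins, with a few of their lysosomal partners. They were chosen by platform symbol: those beginning with Atp6v0, Atp6v1 or Atp6ap, those named Cts followed by a single letter, and Lamp1, Lamp2, Tfeb, Mcoln1 and Mcoln2. They numbered 45 of the 18194 genes with a single-symbol probe set. Of these, 36 passed the filter on dim probe sets and were tested, among 13629 genes tested in all. The other 9 were not tested. They were Atp6v0a4, Atp6v0d2, Atp6v0e2, Atp6v1b1, Atp6v1c2, Ctsj, Ctsm, Ctsr and Mcoln2, which include V-ATPase isoforms known from kidney and bone and cathepsins known from rodent placenta. Each had at most 1 array above the filter.

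Lysosomes digest proteins at an acid pH. The vacuolar-type proton pump (V-ATPase) makes them acid: its cytosolic V1 sector hydrolyses ATP and its membrane V0 sector carries the protons across. Cathepsins are the proteases of the endolysosomal lumen, and in dendritic cells (DCs) they cut antigen and the invariant chain for presentation on MHC class II. Tfeb is a transcription factor that switches on many lysosomal genes, Lamp1 and Lamp2 are the main glycoproteins of the lysosomal membrane, and Mcoln1 and Mcoln2 are its calcium-permeable channels.

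XCR1+ DCs of mouse, the lineage specialised in cross-presentation, were sorted in 5 groups and each group was measured on 3 Affymetrix arrays. Mature cells of untreated thymus (thymus CCR7+) and immature cells of untreated thymus (thymus CCR7-) formed the first pair. From spleen there were mature cells taken 18 h after intraperitoneal injection of 10 µg polyI:C, a double-stranded RNA analogue sensed by TLR3 and MDA5 (polyI:C spleen CCR7+), mature cells of untreated mice (spleen CCR7+) and immature cells of untreated mice (spleen CCR7-). All groups were gated as CD11c+ CD317- CD172a-, mature cells in addition as CD117- CCR7+ and immature cells as CD117+ CCR7-. XCR1 stands in the sample names and not in the gates, and the labels give neither the strain nor the age of the mice. The labels do not say whether the replicates came from separate mice, so the p-values measure no more than the spread between samples, part of which may be technical. All spleen arrays carry a set name in their titles that the thymus arrays lack, whose meaning is not given. If it marks a batch, that batch and the tissue cannot be told apart.

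The values are the authors' log2 RMA signals, with array medians between 4.86 and 5.0. They have no counts, so depth does not apply and the number of arrays limits the precision. Levels of the genes described were compared between groups for 1 gene at a time and never between genes. The marker lists below were summed over genes, so their brightest probe sets weigh most in the sums. Replicates of a group correlated at r between 0.962 and 0.990 over the 13629 genes tested, and spleen CCR7+ replicate 1 stood apart (r = 0.965 and 0.962 with the other replicates). The sorted cells were bulk samples, so fewer cells of a type and less RNA per cell cannot be told apart.

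The labelled cell type was checked against 10 of the 11 listed XCR1+ DC markers. All 10 averaged above the filter in every group, but their summed linear signal was 10030 to 12297 in thymus CCR7+ cells against 30769 to 33399 in thymus CCR7- cells. It was 12440 to 15064 in polyI:C spleen CCR7+ cells and 12797 to 22958 in spleen CCR7+ cells, against 40005 to 44613 in spleen CCR7- cells. The Xcr1 transcript itself read 4.85, 5.09 and 5.81 in thymus CCR7+ cells, against 11.58, 11.48 and 11.14 in thymus CCR7- cells. Cadm1, Cd8a, Itgae, Irf8, Tlr3 and Wdfy4 were also lower in every thymus CCR7+ array, while Flt3 and Zbtb46 overlapped there. Batf3 went the other way, at 9.88, 10.26 and 10.39 against 9.28, 9.22 and 9.26 in thymus. It was also higher in every untreated spleen CCR7+ array than in every spleen CCR7- array. Markers of other cells also moved with maturation, unevenly within their lists. The 9 T cell and thymocyte markers measured summed to 1064 to 2726 in thymus CCR7+ cells against 324 to 622 in thymus CCR7- cells, all 9 averaging above the filter in thymus CCR7+ cells. The 6 B cell markers measured summed to 1400 to 4587 in spleen CCR7+ cells against 733 to 808 in spleen CCR7- cells. The 11 macrophage and monocyte markers measured summed to 3451 to 4612 in thymus CCR7+ cells against 2304 to 2767 in thymus CCR7- cells, but Vcam1 made up 78.2% to 87.2% of the sum in thymus CCR7+ cells, and the other 10 summed to 440 to 835 against 1100 to 1701. Csf1r read 8.37, 7.87 and 6.73 in thymus CCR7+ cells against 9.64, 10.43 and 10.40 in thymus CCR7- cells, and Adgre1 and Cd14 were lower too. By contrast, C1qa, C1qb, C1qc, Spic and Mertk were higher in every thymus CCR7+ array than in every thymus CCR7- array. C1qa read 6.6, 6.6 and 5.9 against 4.9, 4.8 and 5.1, while Fcgr1 and Timd4 overlapped. In spleen the sums without Vcam1 overlapped, at 999 to 2508 in polyI:C CCR7+ cells and 726 to 1451 in untreated CCR7+ cells, against 945 to 2229 in CCR7- cells. Single markers did not all overlap, as Spic and Mertk were higher and Cd14 and Adgre1 lower in every polyI:C array than in every CCR7- array. Spic read 9.6, 9.7 and 9.2 after polyI:C and 6.2, 6.8 and 6.7 in untreated CCR7+ cells, against 4.7, 5.4 and 5.8 in CCR7- cells. The 7 plasmacytoid DC markers summed to 6412 to 8988 in polyI:C spleen CCR7+ cells and 1777 to 2810 in spleen CCR7+ cells, against 1732 to 2179 in spleen CCR7- cells. Bst2, which encodes the CD317 gated against, made up at least 48.6% of each polyI:C sum. Spib read 11.45, 11.85 and 12.04 there against 5.94, 7.94 and 4.98 in spleen CCR7- cells. Ccr9 and Pacsin1 were lower in every polyI:C array than in every spleen CCR7- array, while Siglech, Tcf4 and Klk1 overlapped. Ccr9 read 7.5, 7.8 and 5.1 after polyI:C against 9.9, 9.9 and 9.8. The 6 SIRPa+ DC markers measured summed to 900 to 1184 in thymus CCR7+ cells against 299 to 431 in thymus CCR7- cells. They summed to 1450 to 1741 in polyI:C spleen CCR7+ cells and 585 to 1012 in spleen CCR7+ cells, against 309 to 604 in spleen CCR7- cells. Irf4 and Esam carried the sums of the mature groups. Mgl2 went the other way in thymus, at 4.57, 4.30 and 3.96 in CCR7+ cells against 6.84, 6.86 and 6.27 in CCR7- cells. Cd209a was lower in every polyI:C array than in every spleen CCR7- array. Sirpa overlapped between mature and immature cells in both tissues, and Itgam lay below the filter in every array. The 10 thymic epithelial and stromal markers summed to 554 to 691 in thymus CCR7+ cells against 1532 to 1708 in thymus CCR7- cells, with Epcam lower and Krt8 higher (7.60, 7.18 and 6.94 against 5.60, 6.19 and 5.61). RMA gives no value of 0, so none of these markers was listed at 0. The part of these markers in the results below was not tested.

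TFEB is known to bind a motif with the core CACGTG, which reads the same on both strands. The promoters are shown first to mark which of the genes hold these letters in the 250 bases before and 50 bases after an annotated start. RefSeq promoters on GRCm38.p6 were found for 35 of the 45 genes, and 11 of these 35 genes (31.4%) held CACGTG, against 8.09% of 27025 genes with a promoter. The longer form TCACGTG, sought on both strands and always overlapping the shorter one, was found in 8 of the 35 (22.9%), against 4.29% of all. The 250 bases upstream of the start are given 5′ to 3′ on the gene's strand with CACGTG in capitals. In these 250 bases Lamp1 (plus strand, chr8:13158911-13159160) held 4 copies and had the largest rise in thymus. Ctsd (minus strand, chr7:142387828-142388077) held 2 and rose in thymus, and Ctsa (plus strand, chr2:164833523-164833772, 1 of its starts) held 1 and fell in spleen. Ctsa held another copy past this start, at position 6. Atp6v0a1 (plus strand, chr11:101010148-101010397), which rose in every maturation comparison, held none in this window.
Lamp1: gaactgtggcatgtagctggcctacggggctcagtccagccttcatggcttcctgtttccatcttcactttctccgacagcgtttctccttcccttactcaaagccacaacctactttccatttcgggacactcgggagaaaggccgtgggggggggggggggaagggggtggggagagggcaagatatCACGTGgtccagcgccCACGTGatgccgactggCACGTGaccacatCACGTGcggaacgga
Ctsd: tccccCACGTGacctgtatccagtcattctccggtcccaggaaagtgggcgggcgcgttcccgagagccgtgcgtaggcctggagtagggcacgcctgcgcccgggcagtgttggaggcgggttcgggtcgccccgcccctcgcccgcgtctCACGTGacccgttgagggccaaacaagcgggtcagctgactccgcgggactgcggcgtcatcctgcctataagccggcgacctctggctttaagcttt
Ctsa: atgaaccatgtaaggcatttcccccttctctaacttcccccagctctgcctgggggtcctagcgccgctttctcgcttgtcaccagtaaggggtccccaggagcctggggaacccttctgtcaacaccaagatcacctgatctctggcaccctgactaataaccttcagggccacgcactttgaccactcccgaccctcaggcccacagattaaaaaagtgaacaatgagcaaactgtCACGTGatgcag
Atp6v0a1: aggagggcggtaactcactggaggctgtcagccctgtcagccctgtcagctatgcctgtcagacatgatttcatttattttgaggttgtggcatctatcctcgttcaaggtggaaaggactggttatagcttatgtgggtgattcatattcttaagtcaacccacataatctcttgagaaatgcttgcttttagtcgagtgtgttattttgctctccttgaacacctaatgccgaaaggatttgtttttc

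Among the 27 tested genes with a promoter, 5 of the 10 with CACGTG and 5 of the 17 without it were called in at least 1 maturation comparison. Over all genes tested these shares were 63.6% of those with CACGTG and 58.8% of those without it. The tested genes with no entry were Atp6v0a2, Atp6v1b2, Atp6v1c1, Atp6v1g1, Atp6v1h, Ctsb, Ctse, Ctsh and Ctsw. A match is a description of letters in this window and not a binding site. The 4 copies in the Lamp1 promoter began at positions -61, -45, -28 and -15 from the annotated start.

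Maturation was compared in thymus first, to ask which lysosomal genes differ between mature and immature cells. In thymus CCR7+ cells 9 of the 36 genes were higher and 3 lower than in thymus CCR7- cells, at an adjusted p under 0.05 over all genes tested. Among all 13629 genes, 16.8% were called higher and 20.4% lower, and the 36 genes had 33.3% called in either direction. Their median log2 change was 0.06, against -0.06 for all genes. Lamp1, the a1 subunit gene Atp6v0a1, the ATP-binding subunit gene Atp6v1b2 and the cysteine protease genes Ctsb, Ctsl, Ctsh and Ctsz were among those that rose. The a2 subunit gene Atp6v0a2, the V1 stalk subunit gene Atp6v1c1 and the aspartic protease gene Ctse fell.

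In untreated spleen 5 of the 36 genes were higher and 5 lower in CCR7+ than in CCR7- cells, against 12.3% higher and 24.1% lower among all genes. Without spleen CCR7+ replicate 1, the array that stood apart, the counts were 6 higher and 4 lower. In polyI:C spleen CCR7+ cells 9 genes were higher and 4 lower than in spleen CCR7- cells, against 18.4% and 28.0% among all genes. Both spleen comparisons use the same spleen CCR7- arrays, so their changes are not independent. The median absolute log2 change of the 36 genes was 0.29 in thymus, 0.24 in untreated spleen and 0.29 after polyI:C, against 0.36, 0.36 and 0.46 over all genes tested.

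**Figure D1:**
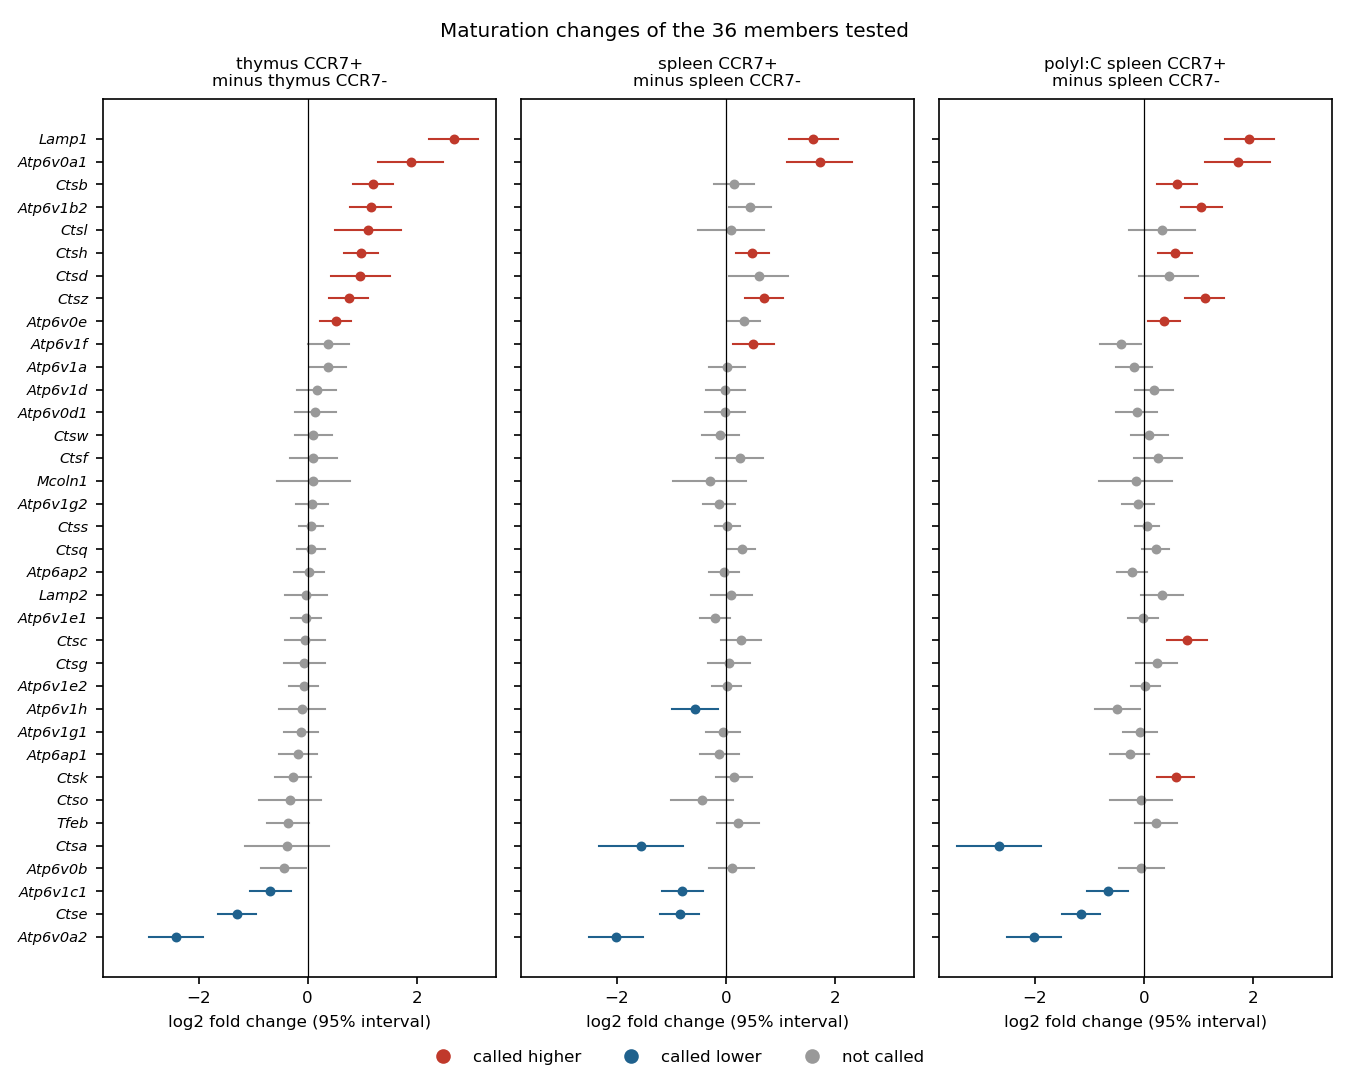
Log2 fold change (x axis, with its 95% interval) of the 36 genes tested in the 3 maturation comparisons, ordered by the thymic change. Lamp1 and Atp6v0a1 lie highest and Atp6v0a2 lowest in thymus, while most of the genes between them lie close to 0 in each panel.

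Of the 36 genes, 4 were called higher in all 3 maturation comparisons (Atp6v0a1, Ctsh, Ctsz and Lamp1) and 3 were called lower in all 3 (Atp6v0a2, Atp6v1c1 and Ctse), against 8.50% and 14.3% of all genes tested. In addition, 3 were called higher in thymus and after polyI:C but not in untreated spleen (Atp6v0e, Atp6v1b2 and Ctsb), against 2.52% of all genes. No maturation comparison called the other 19, against 41.4% of all genes, so that 58.6% of all genes and 17 of the 36 were called in at least 1. Ctsd and Ctsl were called higher in thymus alone, Atp6v1f higher and Atp6v1h lower in untreated spleen alone, Ctsa lower in both spleen comparisons, and Ctsc and Ctsk higher after polyI:C alone. A call in 1 comparison and not in another does not show that the changes differ. The tests of the difference between thymus and untreated spleen are given further down.

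Among the V0 subunit genes, the a subunit forms the proton path and its isoforms are known for sending the pump to different membranes. Atp6v0a1 read 6.62, 7.14 and 7.33 in thymus CCR7+ cells, against 5.01, 5.62 and 4.76 in thymus CCR7- cells. It read 7.34, 6.58 and 7.03 in polyI:C spleen CCR7+ cells and 6.75, 6.70 and 7.50 in spleen CCR7+ cells, against 5.08, 5.38 and 5.33 in spleen CCR7- cells. Every mature array was above every immature array. The log2 change was 1.89 ± 0.28 (SE, adjusted p = 8.23e-05) in thymus, 1.72 (adjusted p = 0.000266) in spleen and 1.72 (adjusted p = 0.000135) after polyI:C. Another probe set moved the same way, by 0.86, 1.24 and 1.14, and a pair of dim ones lay between -0.09 and 0.29, so that the mean over its probe sets gave 0.70, 0.69 and 0.82, each still called.

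Atp6v0a2, whose product is known from the Golgi and early endosomes, went the other way. It read 7.22, 7.90 and 7.35 in thymus CCR7+ cells, against 10.06, 9.95 and 9.70 in thymus CCR7- cells. In spleen it read 7.67, 7.75 and 7.37 after polyI:C and 7.41, 7.96 and 7.41 in untreated CCR7+ cells, against 10.04, 9.34 and 9.45 in spleen CCR7- cells. All mature arrays were below all immature ones, and the 3 mature groups overlapped. Its log2 change was -2.42 ± 0.23 (SE, adjusted p = 1.42e-06) in thymus, -2.02 (adjusted p = 1.47e-05) in spleen and -2.01 (adjusted p = 5.43e-06) after polyI:C. Its other probe sets were lower too, by -3.06 and -1.34 in thymus.

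The isoform of the a subunit that is best known from lysosomes and osteoclasts is encoded by Tcirg1, whose symbol places it outside the group of 45. It was looked up after the values of Atp6v0a1 and Atp6v0a2 were seen. Its log2 change was -0.52 ± 0.13 (SE, adjusted p = 0.00652) in thymus, -0.19 (adjusted p = 0.302) in spleen and -0.23 (adjusted p = 0.183) after polyI:C.

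The small V0 membrane subunit gene Atp6v0e averaged 12.57 ± 0.08 in thymus CCR7+ cells against 12.06 ± 0.08 in thymus CCR7- cells (SD, n = 3 each), a log2 change of 0.51 ± 0.14 (SE, adjusted p = 0.00794). After polyI:C its change was 0.37 (adjusted p = 0.0353). The polyI:C call ended without polyI:C spleen CCR7+ replicate 1 or 3 or any 1 of the 3 spleen CCR7- arrays, with changes of 0.31 to 0.41 and adjusted p between 0.052 and 0.134. Atp6v0b and Atp6v0d1, the other V0 genes tested, were not called in any maturation comparison.

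**Figure D2:**
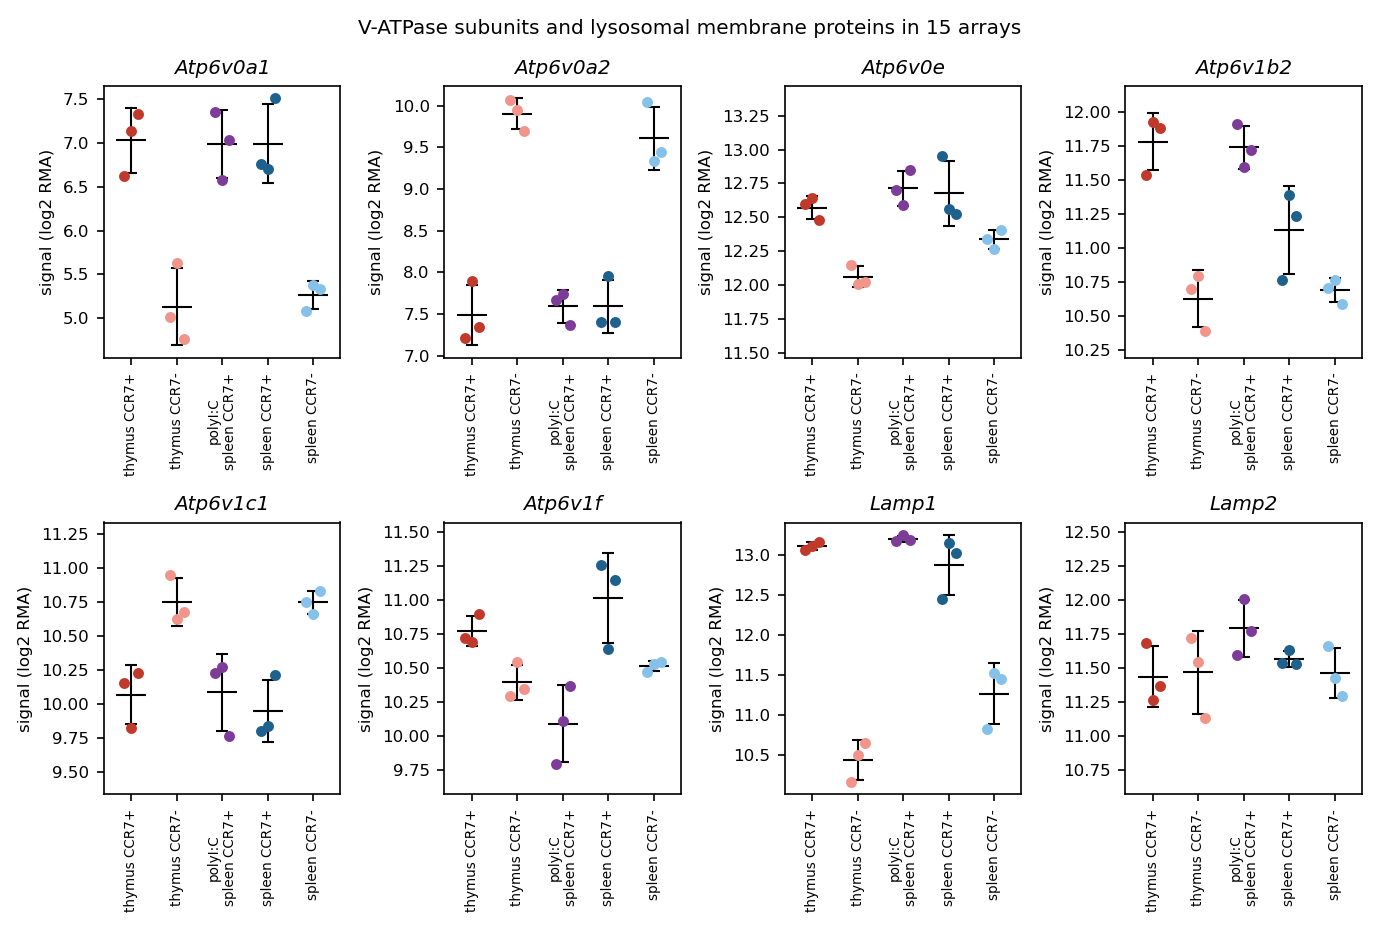
Signal (log2 RMA, y axis) of 6 V-ATPase genes, Lamp1 and Lamp2 in the 15 arrays. Points are arrays, horizontal bars group means and whiskers 1 SD (n = 3). Atp6v0a1 and Lamp1 are high and Atp6v0a2 is low in the 3 mature groups, and Lamp2 overlaps between all groups.

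Among the V1 genes, Atp6v1b2 encodes the widely expressed B subunit, which binds ATP beside the catalytic A subunit. It read 11.54, 11.93 and 11.88 in thymus CCR7+ cells, against 10.69, 10.79 and 10.39 in thymus CCR7- cells. It read 11.91, 11.59 and 11.72 in polyI:C spleen CCR7+ cells and 10.77, 11.39 and 11.23 in spleen CCR7+ cells, against 10.71, 10.76 and 10.59 in spleen CCR7- cells. The untreated spleen CCR7+ arrays lay above the spleen CCR7- arrays, the lowest by a narrow margin, and below the polyI:C arrays. The log2 change was 1.16 ± 0.18 (SE, adjusted p = 0.000122) in thymus and 1.05 (adjusted p = 0.000193) after polyI:C. In untreated spleen it was 0.44, which was not called. With the probe set of largest variance in its place the polyI:C change was 1.07 and was no longer called (adjusted p = 0.0832). The mean of its probe sets gave 0.68 in thymus and 0.68 after polyI:C, both called.

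Atp6v1c1, whose product helps hold V1 and V0 together, averaged 10.07 ± 0.22 in thymus CCR7+ cells against 10.75 ± 0.17 in thymus CCR7- cells (SD, n = 3 each). Its log2 change was -0.69 (adjusted p = 0.00611) in thymus, -0.80 (adjusted p = 0.00244) in spleen and -0.66 (adjusted p = 0.00601) after polyI:C. Its probe sets disagreed: without those whose names end in _s_at, _x_at or _a_at, the change was 0.04 in thymus and -0.03 after polyI:C, neither of them called, and -0.58 in untreated spleen, still called. The mean of its probe sets gave -0.34 in thymus, which was not called (adjusted p = 0.0804).

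In untreated spleen Atp6v1f, a rotor subunit gene, averaged 11.02 ± 0.33 in CCR7+ cells against 10.52 ± 0.04 in CCR7- cells (SD, n = 3 each). Its log2 change was 0.50 (adjusted p = 0.0372). Removing spleen CCR7+ replicate 1 or 3, or any 1 of the 3 spleen CCR7- arrays, ended the call, with changes of 0.38 to 0.51. Atp6v1h, whose product regulates the pump, had a log2 change of -0.57 (adjusted p = 0.0347) in the same comparison. Removing spleen CCR7+ replicate 1 or 3, or spleen CCR7- replicate 1 or 3, ended that call, with changes of -0.62 to -0.41, and another Atp6v1h probe set gave 0.67. The remaining V1 genes, Atp6v1a, Atp6v1d, Atp6v1e1, Atp6v1e2, Atp6v1g1 and Atp6v1g2, and the accessory subunit genes Atp6ap1 and Atp6ap2 were called in no maturation comparison. Of the 17 subunit and accessory genes tested, 3 were called higher and 2 lower in thymus, 2 higher and 3 lower in untreated spleen, and 3 higher and 2 lower after polyI:C. Among all genes tested, 16.8% were called higher and 20.4% lower in thymus. The shares were 12.3% and 24.1% in untreated spleen, and 18.4% and 28.0% after polyI:C.

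Lamp1 had the largest change of the 36 genes in thymus. It read 13.07, 13.12 and 13.16 in thymus CCR7+ cells, against 10.17, 10.51 and 10.65 in thymus CCR7- cells. In spleen it read 13.17, 13.25 and 13.19 after polyI:C and 12.45, 13.16 and 13.03 in untreated CCR7+ cells, against 10.83, 11.53 and 11.45 in spleen CCR7- cells. The mature arrays lay in a narrow band apart from spleen CCR7+ replicate 1, which was the lowest of them and still above all immature arrays. Lamp1 changed by 2.67 ± 0.21 (SE, adjusted p = 2.15e-07) in thymus, 1.61 (adjusted p = 4.69e-05) in spleen and 1.93 (adjusted p = 3.3e-06) after polyI:C. Lamp1 has a single probe set here.

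Lamp2 had no called change with its brightest probe set. That probe set read 11.69, 11.26 and 11.37 in thymus CCR7+ cells, against 11.73, 11.55 and 11.13 in thymus CCR7- cells. It read 11.60, 12.01 and 11.77 in polyI:C spleen CCR7+ cells and 11.54, 11.63 and 11.53 in spleen CCR7+ cells, against 11.66, 11.43 and 11.30 in spleen CCR7- cells. The groups overlapped except that 2 of the 3 polyI:C arrays were the highest of the spleen arrays. Other Lamp2 probe sets did not follow it: one changed by 1.10 in thymus, 0.81 in spleen and 1.55 after polyI:C, and another by 0.82, 0.88 and 1.76, each called over all probe sets (adjusted p between 2.83e-05 and 0.0126). What these probe sets measure apart from each other was not tested.

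Tfeb read 6.58, 6.49 and 6.63 in thymus CCR7+ cells, against 6.65, 6.88 and 7.24 in thymus CCR7- cells. It read 7.36, 6.86 and 7.02 in polyI:C spleen CCR7+ cells and 7.04, 6.84 and 7.38 in spleen CCR7+ cells, against 6.79, 6.91 and 6.88 in spleen CCR7- cells. The thymic groups were separated by a narrow margin and the spleen groups overlapped. The log2 change of Tfeb was -0.35 ± 0.18 (SE, adjusted p = 0.149) in thymus, 0.23 (adjusted p = 0.365) in spleen and 0.22 (adjusted p = 0.341) after polyI:C. Mcoln1 was called in no maturation comparison either, with a wide spread in spleen CCR7+ cells (7.23 ± 0.81, SD, n = 3).

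Among the cathepsins 15 of 18 genes were tested, of which 5 were called higher and 1 lower in thymus, 2 higher and 2 lower in untreated spleen, and 5 higher and 2 lower after polyI:C. Over all genes tested the shares called higher and lower were 16.8% and 20.4% in thymus and 12.3% and 24.1% in untreated spleen. After polyI:C they were 18.4% and 28.0%. Ctsb encodes a cysteine protease that also trims peptides from protein ends. It read 12.25, 12.74 and 12.46 in thymus CCR7+ cells, against 11.47, 11.15 and 11.23 in thymus CCR7- cells. It read 12.70, 12.45 and 12.62 in polyI:C spleen CCR7+ cells and 11.83, 12.36 and 12.20 in spleen CCR7+ cells, against 12.03, 12.12 and 11.82 in spleen CCR7- cells. The thymic and polyI:C arrays stood clear of their immature counterparts, and the untreated spleen fractions overlapped. Ctsb changed by 1.20 ± 0.17 (SE, adjusted p = 6.41e-05) in thymus, 0.14 in spleen, which was not called, and 0.60 (adjusted p = 0.00947) after polyI:C. Its 5 probe sets ranged from 0.25 to 1.42 in thymus, from -0.68 to 0.40 in spleen and from -1.05 to 1.01 after polyI:C, where their mean gave 0.19 (adjusted p = 0.503). The probe set of largest variance gave 1.32 in thymus (adjusted p = 0.0676).

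Ctsl is known for cutting the invariant chain in thymic cortical epithelium. It read 9.42, 9.57 and 8.73 in thymus CCR7+ cells, against 7.97, 8.14 and 8.29 in thymus CCR7- cells. In spleen it read 8.38, 9.21 and 8.24 after polyI:C and 8.12, 8.83 and 8.15 in untreated CCR7+ cells, against 8.08, 8.19 and 8.56 in spleen CCR7- cells. The thymic fractions separated and the spleen groups overlapped. The thymic change was 1.10 ± 0.28 (SE, adjusted p = 0.0061), or 0.53 as the mean of its probe sets, and the splenic changes were 0.09 and, after polyI:C, 0.33, neither called.

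Ctsz, a carboxypeptidase gene, read 12.69, 12.86 and 13.01 in thymus CCR7+ cells, against 12.05, 12.28 and 11.98 in thymus CCR7- cells. It read 12.97, 13.00 and 13.16 in polyI:C spleen CCR7+ cells and 12.35, 12.58 and 12.97 in spleen CCR7+ cells, against 11.86, 12.09 and 11.85 in spleen CCR7- cells. No mature array fell below an immature one. Ctsz changed by 0.75 (adjusted p = 0.00217) in thymus, 0.70 (adjusted p = 0.00378) in spleen and 1.11 ± 0.16 (SE, adjusted p = 6.06e-05) after polyI:C, and the other probe sets moved the same way, by up to 1.73 after polyI:C. Ctsh, an aminopeptidase gene, averaged 12.36 ± 0.21 in thymus CCR7+ cells against 11.39 ± 0.06 in thymus CCR7- cells (SD, n = 3 each). Its log2 change was 0.97 (adjusted p = 9.19e-05) in thymus, 0.49 (adjusted p = 0.0159) in spleen and 0.57 (adjusted p = 0.00457) after polyI:C. The splenic call of Ctsh ended without spleen CCR7+ replicate 3 (0.36, adjusted p = 0.0782) or spleen CCR7- replicate 3 (0.46, adjusted p = 0.0544).

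Ctsd, the main aspartic protease gene of lysosomes, averaged 8.60 ± 0.17 in thymus CCR7+ cells against 7.64 ± 0.34 in thymus CCR7- cells (SD, n = 3 each), a log2 change of 0.97 (adjusted p = 0.00693). Its changes of 0.60 in spleen (adjusted p = 0.0759) and 0.45 after polyI:C (adjusted p = 0.156) were not called. After polyI:C, Ctsc, whose product activates serine proteases, changed by 0.79 (adjusted p = 0.00148) and Ctsk, known from osteoclasts, by 0.58 (adjusted p = 0.00648). The most variable probe set of Ctsc gave 1.10 after polyI:C, which was not called (adjusted p = 0.0583). Ctsk read between 4.89 and 5.28 there, not far above the filter at 4.39.

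The cathepsin genes that fell were Ctse and Ctsa. Ctse, an endosomal aspartic protease gene, read 5.43, 5.80 and 5.32 in thymus CCR7+ cells, against 6.57, 6.94 and 6.91 in thymus CCR7- cells. It read 5.26, 5.19 and 5.46 in polyI:C spleen CCR7+ cells and 5.40, 5.81 and 5.61 in spleen CCR7+ cells, against 6.33, 6.46 and 6.56 in spleen CCR7- cells. No mature array reached an immature one. Ctse changed by -1.29 ± 0.16 (SE, adjusted p = 2.33e-05) in thymus, -0.85 (adjusted p = 0.00106) in spleen and -1.15 (adjusted p = 4.54e-05) after polyI:C, or -0.47 in both spleen comparisons as the mean of its probe sets, still called.

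Ctsa encodes a carboxypeptidase that also shields β-galactosidase and neuraminidase in the lysosome. It read 6.43, 7.05 and 6.51 in thymus CCR7+ cells, against 7.09, 7.0 and 7.02 in thymus CCR7- cells. It read 6.56, 7.05 and 5.41 in polyI:C spleen CCR7+ cells and 6.86, 7.91 and 7.56 in spleen CCR7+ cells, against 8.69, 9.42 and 8.89 in spleen CCR7- cells. The spleen CCR7- arrays were above all others and the remaining groups ran into each other. The log2 change was -1.55 ± 0.36 (SE, adjusted p = 0.00354) in spleen and -2.66 (adjusted p = 2.69e-05) after polyI:C, or -0.78 and -1.23 as the mean of its probe sets, both still called. In thymus it was -0.38, which was not called. Ctss, the cathepsin known for the last cuts of the invariant chain in DCs, read between 13.67 and 13.82 in all 15 arrays, and Ctsf, Ctsg, Ctso, Ctsq and Ctsw were not called in any maturation comparison.

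**Figure D3:**
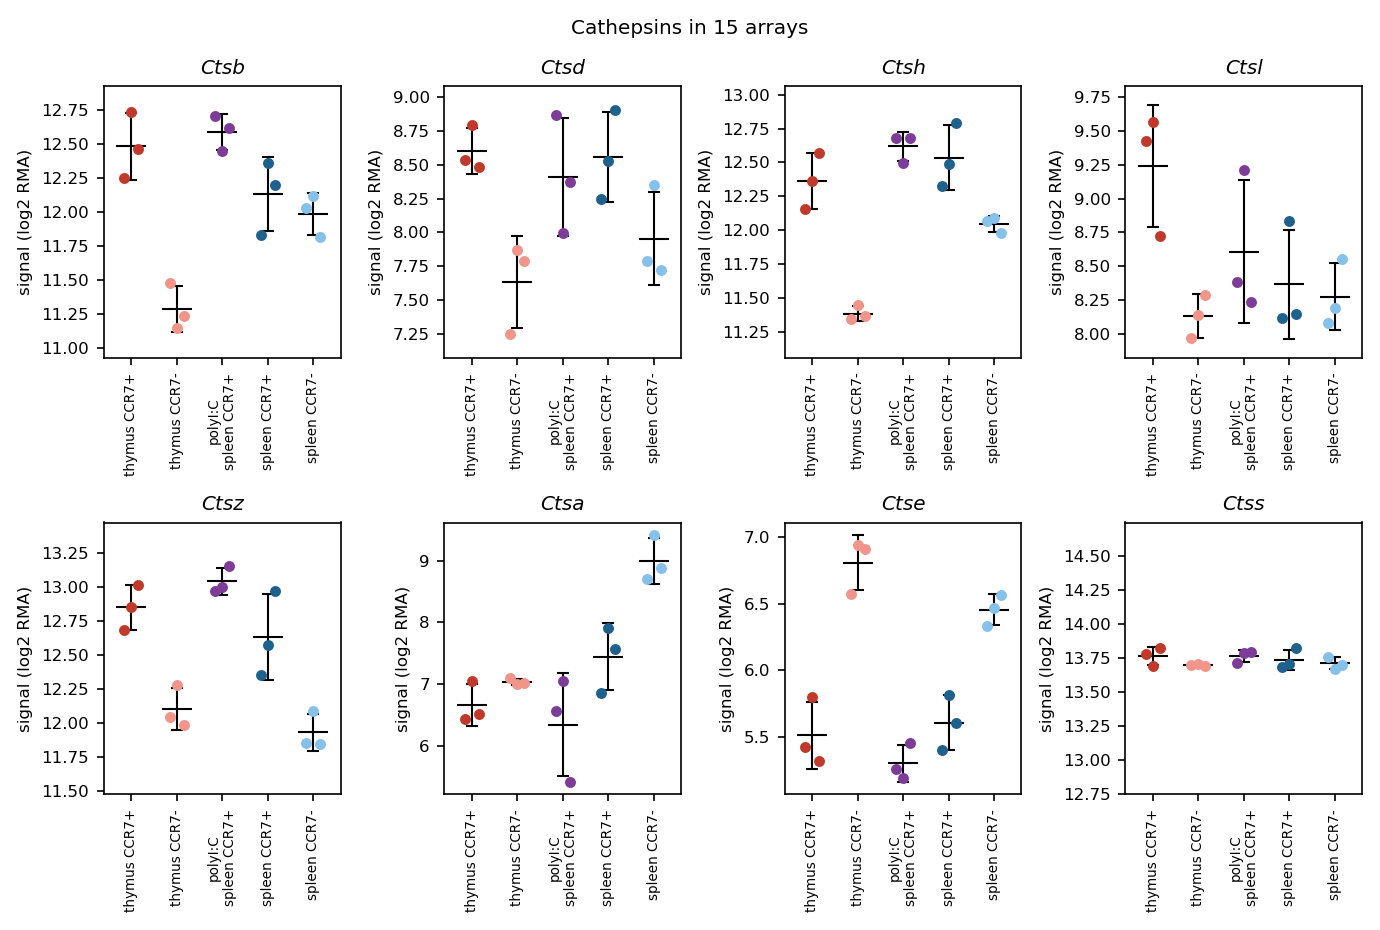
Signal (log2 RMA, y axis, each panel with its own range) of 8 cathepsin genes in the 15 arrays. Points are arrays, horizontal bars group means and whiskers 1 SD (n = 3). Ctsb and Ctsl separate the thymic fractions and overlap between the untreated spleen fractions, Ctsa is highest in spleen CCR7- cells, and Ctss stays between 13.67 and 13.82.

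Both kinds of mature spleen cells were then set against each other, to ask what differed 18 h after polyI:C. In polyI:C spleen CCR7+ cells 1 of the 36 genes was higher and 2 were lower than in untreated spleen CCR7+ cells, against 8.58% and 9.66% among all genes. Atp6v1f averaged 10.09 ± 0.28 after polyI:C against 11.02 ± 0.33 in untreated cells (SD, n = 3 each), a log2 change of -0.93 ± 0.18 (SE, adjusted p = 0.00203). Atp6v1b2 was higher by 0.61 (adjusted p = 0.027). This call ended without polyI:C spleen CCR7+ replicate 1 or 3 or spleen CCR7+ replicate 1, with changes of 0.43 to 0.62 and adjusted p between 0.0682 and 0.1. Its most variable probe set gave 1.22, which was not called (adjusted p = 0.101). Without spleen CCR7+ replicate 1, the array that stood apart, Atp6v1b2 was not called and 2 genes were called lower.

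Ctsa was called lower after polyI:C than in untreated spleen CCR7+ cells by -1.10 (adjusted p = 0.0464), although the arrays of both groups overlapped. This call ended when any 1 of 11 arrays was left out, among them polyI:C spleen CCR7+ replicate 3, which gave -0.64. The others were thymus CCR7+ replicates 1 and 3, the 3 thymus CCR7- arrays, polyI:C replicate 1, spleen CCR7+ replicates 2 and 3 and spleen CCR7- replicates 1 and 3, and over all 11 the adjusted p lay between 0.0536 and 0.209. It also ended without the filter (adjusted p = 0.0618), with centring on array medians (adjusted p = 0.0599) and with the mean of its probe sets (-0.45, adjusted p = 0.076).

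Thymus was compared with untreated spleen within each fraction. In thymus CCR7- cells 1 of the 36 genes was higher and 4 were lower than in spleen CCR7- cells, against 4.92% and 3.24% among all genes. Ctsa had the largest difference, at -1.96 ± 0.36 (SE, adjusted p = 0.00267), or -0.97 as the mean of its probe sets. Ctsh was lower by -0.66 (adjusted p = 0.00987). Ctsb differed by -0.70 (adjusted p = 0.0186), Lamp1 by -0.83 (adjusted p = 0.0222) and Ctsc by 0.66 (adjusted p = 0.0265), and these last 3 calls were lost on removing any of several single arrays, with differences of similar size.

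The Ctsb call was lost when thymus CCR7- replicate 2 or 3, or spleen CCR7- replicate 1 or 2, was removed, with differences of -0.68 to -0.63. The Lamp1 call was lost when thymus CCR7- replicate 1 or 2, or spleen CCR7- replicate 2 or 3, was removed, with -0.86 to -0.69. The Ctsc call ended without any 1 of the 6 arrays compared, with 0.62 to 0.69. It also ended with the mean of its probe sets (0.71, adjusted p = 0.142) and with the most variable one (1.15, adjusted p = 0.163). The most variable probe set of Ctsb gave -0.68, which was not called (adjusted p = 0.614). Same-numbered arrays of the tissues deviated together. With the replicate number as a block within each fraction, added after seeing the data, all 5 genes were still called (adjusted p between 0.00173 and 0.0172).

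In thymus CCR7+ cells 1 gene was higher and 0 were lower by limma than in spleen CCR7+ cells, against 8.71% and 3.47% among all genes. At an unadjusted p under 0.05 the counts were 2 higher and 3 lower. These counts have no share of all genes at that threshold to stand against, as it was not computed. Atp6v1b2 was higher by 0.65 ± 0.18 (SE, adjusted p = 0.0273). Its call ended without thymus CCR7+ replicate 2 or 3 or spleen CCR7+ replicate 1, with 0.47 to 0.60, and its most variable probe set was not called (1.33, adjusted p = 0.0914). With the replicate number as a block within each fraction 2 genes were higher and 2 lower, Atp6v1b2 among them (adjusted p = 0.0194). This block was added after seeing the data, and its CCR7+ terms also covered the polyI:C arrays, which the numbers do not pair. The block added Ctsl, higher by 0.87 (adjusted p = 0.00337, against 0.0595 without the block). It also added Tfeb, lower by -0.52 (adjusted p = 0.0354, against 0.0774), and Atp6v0b, lower by -0.50 (adjusted p = 0.0294, against 0.11).

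**Figure D4:**
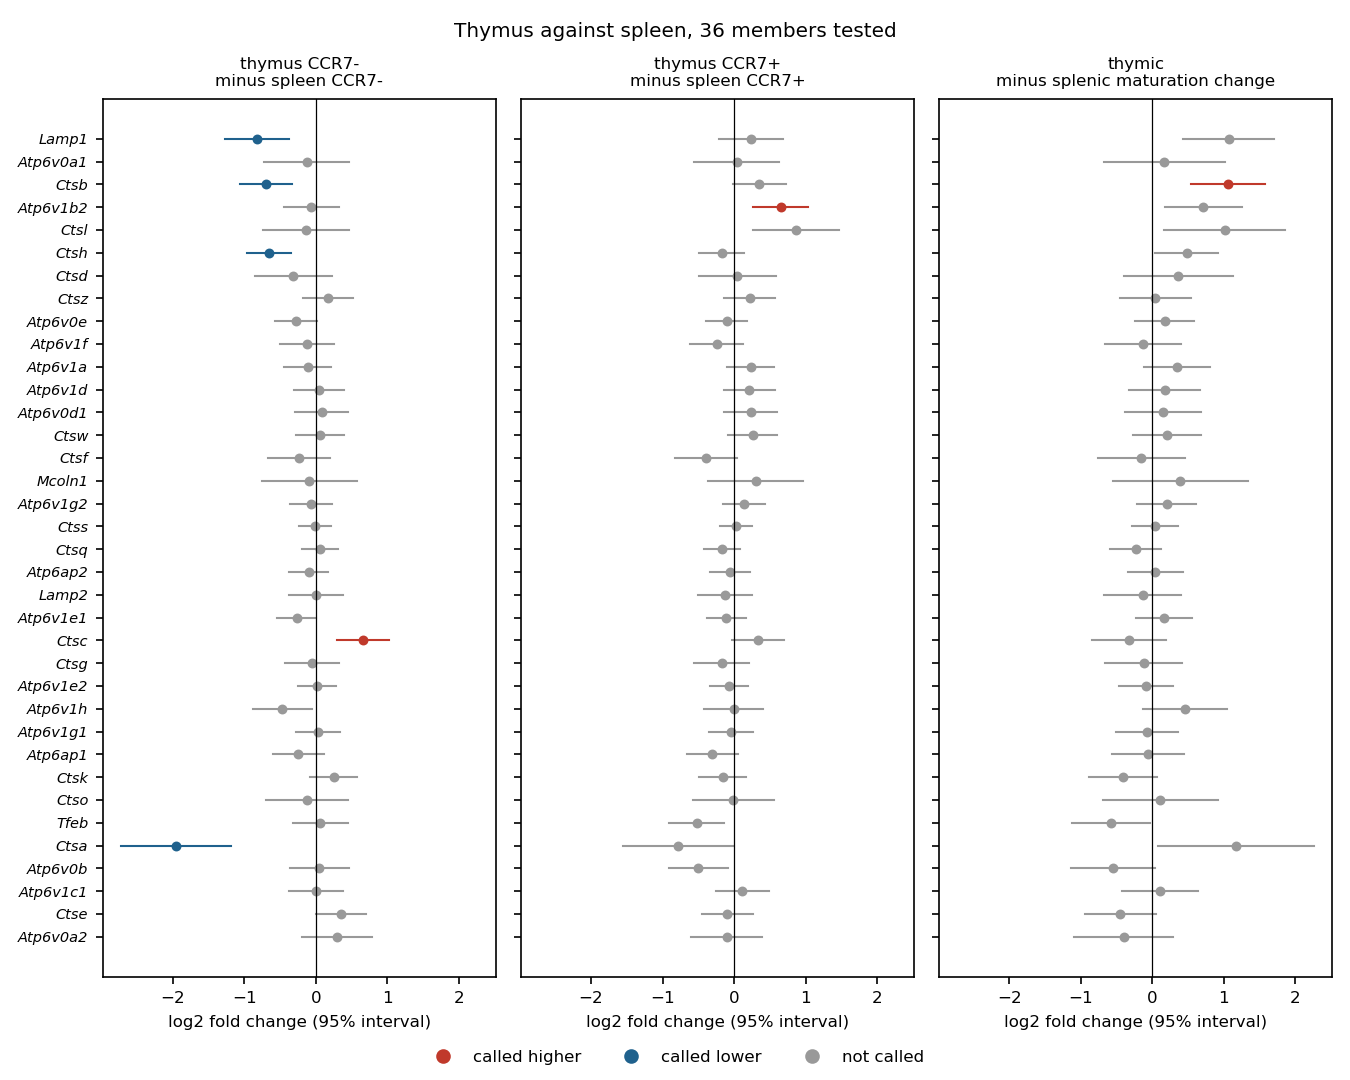
Log2 difference (x axis, with its 95% interval) of the 36 genes between thymus and spleen in CCR7- cells, in CCR7+ cells and for the maturation change, from the fit without a block. Genes run in the order of the thymic change. In the CCR7- panel Ctsa is farthest from 0, and Ctsb is the gene called in the panel of the maturation change.

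The thymic change was then tested against the splenic change in the same fit. For 1 gene, Ctsb, the thymic change was higher than the splenic one, and for 0 genes it was lower by limma, against 1.79% and 1.39% among all genes. At an unadjusted p under 0.05 the counts were 6 higher and 1 lower. The share of all genes at that threshold was not computed, so these counts cannot be set against the shares above. The changes of Ctsb, 1.20 in thymus and 0.14 in spleen, differed by 1.05 ± 0.24 (SE, adjusted p = 0.0291). The call was lost on removing replicate 2 or 3 of either thymic fraction, or spleen CCR7- replicate 1 or 2, with differences of 0.93 to 1.06 and adjusted p between 0.0583 and 0.08. It also ended with the mean of its probe sets (1.0, adjusted p = 0.11) and with the probe set of largest variance (2.00, adjusted p = 0.22). With the block, Ctsb was called (adjusted p = 0.0228), as were Lamp1 (1.07, adjusted p = 0.0148, against 0.0707 without the block) and Ctsl (1.01, adjusted p = 0.0209, against 0.222).

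Other lysosomal genes were described from 6 lists that share no gene with the 45. Of 32 lysosomal hydrolases and activators, 7 were higher and 13 lower in thymus CCR7+ than in thymus CCR7- cells, with a median log2 change of -0.26. Among all genes tested 16.8% were called higher and 20.4% lower in thymus (median -0.06), 12.3% and 24.1% in untreated spleen (median -0.03), and 18.4% and 28.0% after polyI:C (median 0.02), and the counts of every list stand against these. The hydrolase counts were 7 and 17 in untreated spleen (median -0.61) and 5 and 18 after polyI:C (median -1.21). Gaa, which breaks down glycogen, rose by 2.50 in thymus, 2.16 in spleen and 1.89 after polyI:C. Lgmn, of the same list, rose by 3.25 in thymus, 1.93 in spleen and 4.41 after polyI:C. Ppt1, which removes fatty acids from proteins, fell, by -4.58 in thymus, -1.80 in spleen and -3.47 after polyI:C. Arsb, a sulfatase, fell, by -3.30, -2.57 and -4.33 in the same order (adjusted p between 2.35e-08 and 9.52e-06).

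A list drawn up as cathepsin inhibitors had 10 genes tested, of which 3 were cystatins (Cst3, Cst7 and Cstb), 6 were clade B serpins and 1 was Cd74, the invariant chain gene. Of these, 6 were higher in thymus (median 1.68), 6 higher and 1 lower in spleen (median 1.09) and 7 higher and 2 lower after polyI:C (median 1.27). Serpins made up 5 of the genes called higher in each comparison, and Cstb was the cystatin called higher in thymus and in untreated spleen, with Cst7 in addition after polyI:C. The serpin gene Serpinb6a rose by 2.91 in thymus, 1.61 in spleen and 1.88 after polyI:C (adjusted p between 3.41e-09 and 1.61e-06). Serpinb9b, a relative of the granzyme B inhibitor gene Serpinb9, rose by 2.86, 2.57 and 2.10. Serpinb2, known as a plasminogen activator inhibitor, went the other way in spleen, by -3.54 in untreated cells and -4.32 after polyI:C.

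Of 22 other lysosomal membrane proteins, 6 were higher and 5 lower in thymus, 4 and 9 in spleen, and 8 and 12 after polyI:C. Laptm4b rose by 1.23, 1.20 and 1.36, and Cd68 fell, by -3.07, -2.67 and -3.56. Of 13 genes of V-ATPase assembly and regulation, 3 and 3 were called higher and lower in thymus, 3 and 6 in spleen, and 3 and 5 after polyI:C. Rogdi and Ncoa7, which bind or regulate the pump, rose by 1.11 and 1.72 in thymus, and the assembly factor gene Tmem199 fell, by -1.67 both in spleen and after polyI:C.

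Of 20 genes for MiT-TFE factors and lysosomal mTORC1, 5 and 5 were called higher and lower in thymus, 3 and 5 in spleen, and 3 and 6 after polyI:C. Rragd, which encodes a Rag GTPase of the lysosomal surface, rose by 3.99, 4.20 and 4.75. Its partner gene Rraga fell, by -1.87, -2.10 and -2.28. Among the relatives of Tfeb, Mitf fell, by -1.07 in untreated spleen and -2.09 after polyI:C, and Tfe3 rose by 0.77 and 0.56 in the same order. The Tfe3 call after polyI:C (adjusted p = 0.0427) ended without any 1 of 7 arrays, with 0.48 to 0.61. It also ended with centring on array medians (adjusted p = 0.0512) and with trended robust eBayes (adjusted p = 0.0564). The Mitf call in untreated spleen (adjusted p = 0.0162) ended without spleen CCR7+ replicate 1 (-0.70) or spleen CCR7- replicate 2 (-0.84), and in the fit of both groups alone (adjusted p = 0.0587). Of 20 genes for sorting enzymes to lysosomes, 6 and 4 were called higher and lower in thymus, 3 and 5 in spleen, and 4 and 6 after polyI:C. Igf2r, the large mannose 6-phosphate receptor, fell, by -1.58, -1.23 and -2.99.

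**Figure D5:**
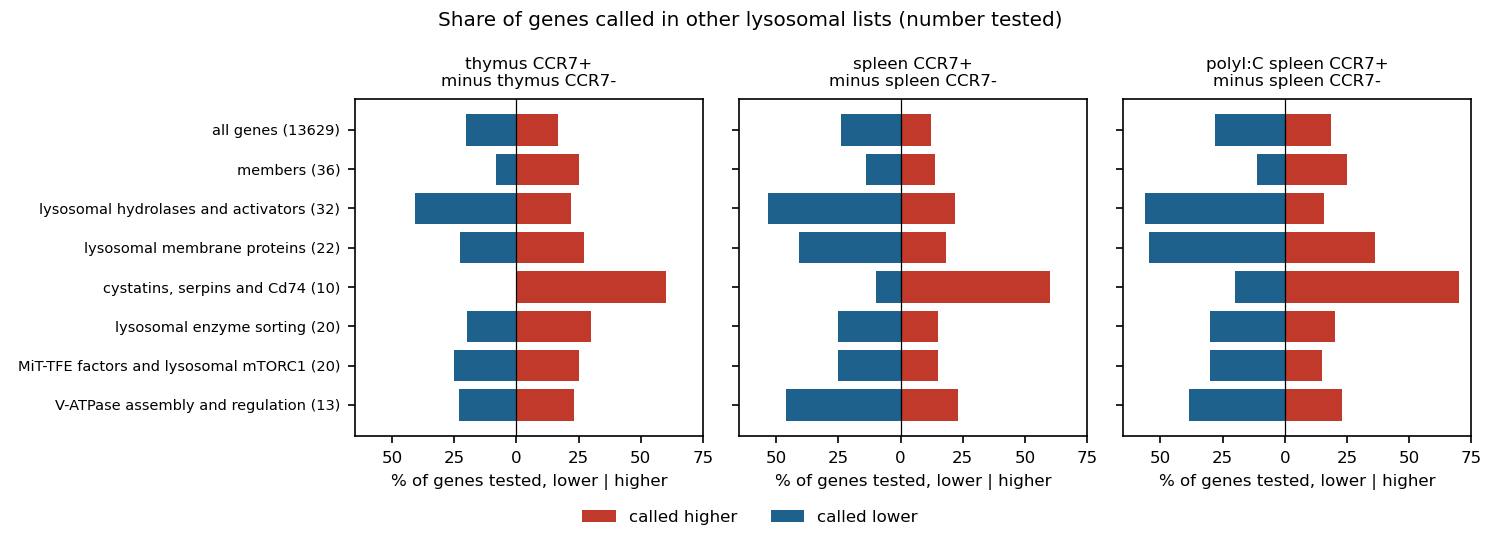
Percent of the genes tested in each list that were called higher (right of 0) or lower (left of 0) in the 3 maturation comparisons, with the number tested in brackets. The cystatins, serpins and Cd74 lie mostly to the right, with 6, 6 and 7 of 10 called higher, and the hydrolases lie mostly to the left, with 13, 17 and 18 of 32 called lower.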

How the data were processed

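Sorted XCR1+ DCs of 5 groups were measured on 15 arrays, 3 a group. The deposited log2 signals were made by the authors with RMA and affy, per the submitters' processing notes. Their versions, and which arrays were normalised together, are not given in the sources read here. RMA gives no detection calls, and changes of dim genes may be compressed, which was not measured. Groups follow the sample labels.

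Of 45101 probe sets, 34958 carry 1 gene symbol in the platform annotation, 932 carry several and 9211 are not listed there. For each of the 18194 genes the probe set brightest on average over the 15 arrays was used; 23 of the 45 genes have more than 1. A gene was tested when 3 or more arrays lay above 4.39, the 40th percentile of the table. Group means were fitted to all 15 arrays with limma 3.58.1 in R 4.3.3 (eBayes, 10 residual and 4.01 prior degrees of freedom), with 7 comparisons and Benjamini-Hochberg adjustment over 13629 genes at 0.05. The steps were tested on simulated data. Changes are log2 differences, mature minus immature, polyI:C minus untreated and thymus minus spleen.

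The genes, the lists and the tests were chosen with earlier results of these data known. Values of every array are given for members called at least 2-fold apart in any comparison and for Tfeb, Lamp1 and Lamp2, and of each list up to 3 rising and 3 falling called genes were eligible to be named. The replicate numbers of the titles recur in all groups without any statement of what they mark. Deviations from the group means correlated between same-numbered arrays in every pair of thymus and spleen, at 0.524 or above in CCR7- cells and 0.42 or above in CCR7+ cells, so the numbers were taken as pairs there from the data and not from the labels. In the other comparisons at least 1 pair correlated at 0.002 or below.

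The alternatives changed the filter (none, or the 60th percentile), the choice of probe set (averaging them, taking the most variable one, or dropping names that end in _s_at, _x_at or _a_at), the scaling (a further quantile step, or median centring) and the fit (trended robust eBayes, array weights, only the groups compared, a replicate block). Others were treat against a log2 change of 1 and each array left out in turn. A replicate block within each CCR7 fraction was added after seeing the data. Promoters are RefSeq's on GRCm38.p6; searches and figures used Python 3.11.15, pandas 2.3.3 and matplotlib 3.10.9.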

Additional observations from a re-analysis of the deposited data

Results flagged for a closer look

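The changes of Ctsb with maturation differed between the tissues by the test of the difference itself. Ctsb changed by 1.20 in thymus and by 0.14 in untreated spleen, a difference of 1.05 (limma, adjusted p = 0.0291 over all genes tested). Its immature level was lower in thymus (11.28 ± 0.17) than in spleen (11.99 ± 0.15, SD, n = 3 each), and its mature level was 12.48 ± 0.25 in thymus CCR7+ cells against 12.13 ± 0.27 in spleen CCR7+ cells. The call ended when any 1 of 6 arrays was left out, with differences of 0.93 to 1.06. It also ended with the mean of the probe sets (1.0, adjusted p = 0.11) and with the probe set of largest variance (2.00, adjusted p = 0.22).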

How the results depend on the processing

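Of 45 called changes of the genes described, 27 kept direction and call under every alternative that tested their gene, except treat. Treat tests against a log2 change of 1. The other 18 lost the call in at least 1. An alternative that dropped a gene did not count for it, as for Lamp1 when its single probe set, ending in _a_at, was left out. Counts below are genes called higher and lower. In thymus they were 9 and 3; dropping probe sets whose names end in _s_at, _x_at or _a_at gave 4 higher, which removes the single probe sets of genes such as Lamp1, and treat gave 2 and 1. In untreated spleen (5 and 5), 8 were higher with the mean of the probe sets, 3 with those probe sets left out, 3 with the compared groups only, and treat gave 0 and 1. For polyI:C against spleen CCR7- cells (9 and 4) treat gave 1 and 2. For polyI:C against untreated spleen CCR7+ cells (1 and 2), the higher count was 4 with the mean of the probe sets, 3 with the probe set of largest variance (not Atp6v1b2), 2 with those endings left out, 3 with quantile normalisation, 2 with centring, 3 with the trend and 0 with array weights. The lower count was 1 without the filter, with the mean and with centring, and the compared groups only and treat both gave 0 and 0. For thymus against spleen CCR7- cells (1 and 4), the mean and the largest variance gave 0 higher, and treat 0 and 0. For CCR7+ cells (1 and 0), the largest variance gave 0 and 2, those endings left out 2 and 1, and array weights, the compared groups only and treat 0 higher. For the difference of the maturation changes (1 and 0), the mean, the largest variance and treat gave 0 higher and array weights 2. The fit of the compared groups only ended the calls of Atp6v0e after polyI:C, of Atp6v1f, Atp6v1h and Ctsh in spleen, of Atp6v1b2 in both comparisons of CCR7+ groups, and of Atp6v1f and Ctsa between mature spleen cells; array weights ended those of Atp6v1f and Atp6v1h in spleen and of Atp6v1b2 in both. Apart from the values shown for Atp6v1c1 (0.043 in thymus with those endings left out) and Atp6v1h (0.67 in spleen with the largest variance), the direction turned for Oxr1 after polyI:C (0.028 with those endings left out) and Ncoa7 between CCR7- tissues (0.02 with the largest variance). Where no cause is named, the cause was not tested. With single arrays left out, the counts of genes higher and lower ranged from 9 to 10 and 3 to 3 in thymus, 3 to 6 and 4 to 6 in spleen, 8 to 9 and 4 to 6 for polyI:C against spleen CCR7- cells, 0 to 3 and 1 to 2 for polyI:C against spleen CCR7+ cells, 0 to 1 and 2 to 4 between CCR7- tissues, 0 to 2 and 0 to 2 between CCR7+ tissues, and 0 to 2 and 0 to 0 for the difference. The replicate number as a block over all arrays gave 2 higher for polyI:C against untreated spleen CCR7+ cells, 2 for thymus against spleen CCR7+ cells and 2 for the difference of changes, and the block within each CCR7 fraction gave 4, 2 and 3, with 2 lower between CCR7+ tissues. That block called 2898 against 1660 of all genes between CCR7+ tissues, 1756 against 1112 between CCR7- tissues and 1035 against 433 for the difference; for polyI:C against untreated spleen CCR7+ cells, where the numbers do not pair the arrays, it called 3576 against 2486. The block changed no other count by more than 1.5 times. Changes of dim genes such as Ctsk and Ctse may be compressed, which was not measured. With 3 arrays a group and no detection calls, a change that was not called is not shown to be absent.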
